A study of Mus musculus with 10 samples.

Results

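The last sort of the blast culture, in which KIT+ CD41+ cells lose TIE2, was examined by comparing hematopoietic progenitors (HP, KIT+ TIE2− CD41+) with the later hemogenic endothelium, HE2 (KIT+ TIE2+ CD41+). The comparison used the 2 HE2 and the 2 HP libraries, which are 4 of the 10 libraries of the study, and they were taken by their labels alone. The study sequenced the RNA of nuclei from the mouse ES line HM-1 and from cells sorted as this line differentiated in serum. Embryoid bodies were grown for 3 d, FLK1+ hemangioblast cells were sorted from them and replated, and HE1 (KIT+ TIE2+ CD41−), HE2 and HP were sorted after a further 2.5 d of blast culture. The medium of that culture held serum, VEGF at 5 ng/ml, IL-6 at 10 ng/ml and medium conditioned by D4T endothelial cells, and all 3 populations came from it. The populations therefore differ by the antigens of the sort and not by time or by an agent. HE1 is the stage before HE2 and is given beside HE2 and HP where it helps to place a value.

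In blood development in the embryo, hemogenic endothelium is a vascular cell type that turns into blood cells in a process called the endothelial to hematopoietic transition. Cells first switch on RUNX1 and blood cell surface proteins such as the integrin CD41 while junctions and receptors of the vessel wall are still made, and they round up and detach after these endothelial proteins are lost. TIE2, the product of Tek, is the receptor for angiopoietins on endothelial cells, and its loss is used to separate free progenitors from cells that are still endothelial.

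The total count on genes was 33109887 and 32917684 in the HE2 libraries and 45097069 and 29592213 in the HP libraries. A floor of 3 counts was equal to between 0.0665 and 0.101 CPM in these 4 libraries, which covers counting error only. Expression is given as CPM after TMM scaling, with replicate 1 before replicate 2. Log2 fold changes are those of HP against HE2 with their standard error (SE) from edgeR, fitted over all 10 libraries with 22596 tested genes. The labels give the libraries of a stage as separate samples, and the study calls the pair of expression replicates per cell type biologically independent. The p-values use a spread between replicate libraries that was estimated over every stage, with ES and hemangioblast cells included. The common biological coefficient of variation, a typical relative spread between replicates, was 0.226 over all 10 libraries. It was larger in the 6 blast culture libraries alone (0.281) and in the 4 libraries compared (0.256).

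The libraries of a stage differed from each other, in HP as much as in HE2. Across tested genes, the log2 CPM of HE2 replicate 2 had a Pearson correlation of 0.9866 with HP replicate 1, which was above the 0.9828 between the HE2 libraries and the 0.9825 between the HP libraries. It was 0.967 between the HE1 libraries. Genes are not independent replicates, and these values are a description. The median absolute log2 difference between the HE2 libraries was 0.343, that between the HP libraries was 0.323, and that between the HE1 libraries was 0.406. The mean of HP differed from the mean of HE2 by a median of 0.209, which is a difference of means and is not on the same footing as one between single libraries. Between HE2 and HE1 it was 0.526.

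How far each HE2 library had moved was read from genes called between HE1 and HP. The HE2 libraries entered that fit through its filter, scaling and spread, but not through the contrast. There were 1210 genes higher in HP than in HE1 (5.35% of tested genes) and 2525 lower (11.2%) by edgeR's quasi-likelihood test, where a called gene differs 2-fold or more with a Benjamini-Hochberg adjusted p-value under 0.05. For the higher genes, HE2 replicate 1 had covered a median of 65.7% of the log2 distance from HE1 to HP, and HE2 replicate 2 a median of 83.1%. For the lower genes the medians were 50.8% in replicate 1 and 95.7% in replicate 2. HE2 replicate 2 was at or past the HP mean for 43.7% of the lower genes, and replicate 1 for 5.82%. Hence, by the median of these lower genes, about as much of the loss remained in replicate 1 as had been completed, and little remained in replicate 2. This does not hold for every group of genes. The endothelial surface and junction genes described below summed to 3234 CPM in HE2 replicate 2, against 9171 and 6220 CPM in HE1 and 1574 and 1795 CPM in HP. List medians of HP against HE2 are therefore given with both HE2 libraries and without each of them.

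The sort antigens were examined first as a check of the labels. Tek (ENSMUSG00000006386, chr4:94739289-94874976, mm10) had 285 and 159 CPM in HE2 and 61.5 and 64.2 CPM in HP. Both HP libraries were below both HE2 libraries, and TIE2+ HE1 cells were higher still with 564 and 294 CPM. The log2 fold change of Tek was −1.82 (SE 0.31), and it was −1.34 at the smallest and −2.18 at the largest when 1 of the 4 libraries was left out. Because TIE2 protein defined the sort, this difference is a check and not a finding. Kit, the receptor for stem cell factor, had 230 and 410 CPM in HE2 and 363 and 251 CPM in HP, and the ranges of the 2 stages overlapped. Itga2b, which encodes CD41, had 505 and 469 CPM in HE2 and 400 and 367 CPM in HP against 227 and 127 CPM in HE1. The labels were thus matched by the RNA of Tek and Itga2b, with Tek RNA reduced but not absent in the TIE2− cells. Kit and Itga2b were the 2 of the 3 antigens called as higher in HE2 than in HE1, although all 3 populations were sorted as KIT+.

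Kdr, Mecom and Sox17 mark the endothelial side of the sort together with Tek. Kdr, the VEGF receptor also known as FLK1, had 926 and 630 CPM in HE2 and 334 and 344 CPM in HP. Mecom, a zinc finger transcription factor of hemogenic endothelium and stem cells, had 32.8 and 11.5 CPM in HE2 and 2.58 and 7.03 CPM in HP. Sox17, a SOXF factor needed for arterial and hemogenic endothelium, had 31 and 8.38 CPM in HE2 and 1.85 and 7.88 CPM in HP. Both HP libraries were below both HE2 libraries for each of these 3 genes, but for Sox17 the gap between HE2 replicate 2 and HP replicate 2 was small. The log2 fold changes were −1.20 (SE 0.28), −2.22 (SE 0.52) and −2.04 (SE 0.63), and none passed the test (edgeR, adjusted p = 0.151, 0.152 and 0.309). DESeq2 called Tek, Kdr and Mecom as lower, and limma-voom called Tek alone. Without HE2 replicate 2, edgeR called Tek, Kdr, Mecom and Sox17, all 4 as lower. Without HE2 replicate 1 it called none of them, with 3 of the 4 lower at an unadjusted p-value under 0.05, and the log2 fold changes were −1.34 for Tek, −0.90 for Kdr, −1.28 for Mecom and −0.81 for Sox17 (edgeR, adjusted p = 0.389, 0.780, 0.802 and 0.918). Sox17 also moved with the HP libraries, to −1.32 without replicate 1 and −3.41 without replicate 2. In a bulk sample, fewer endothelial cells in a sort and less of these RNAs in each cell cannot be told apart.

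**Figure D1:**
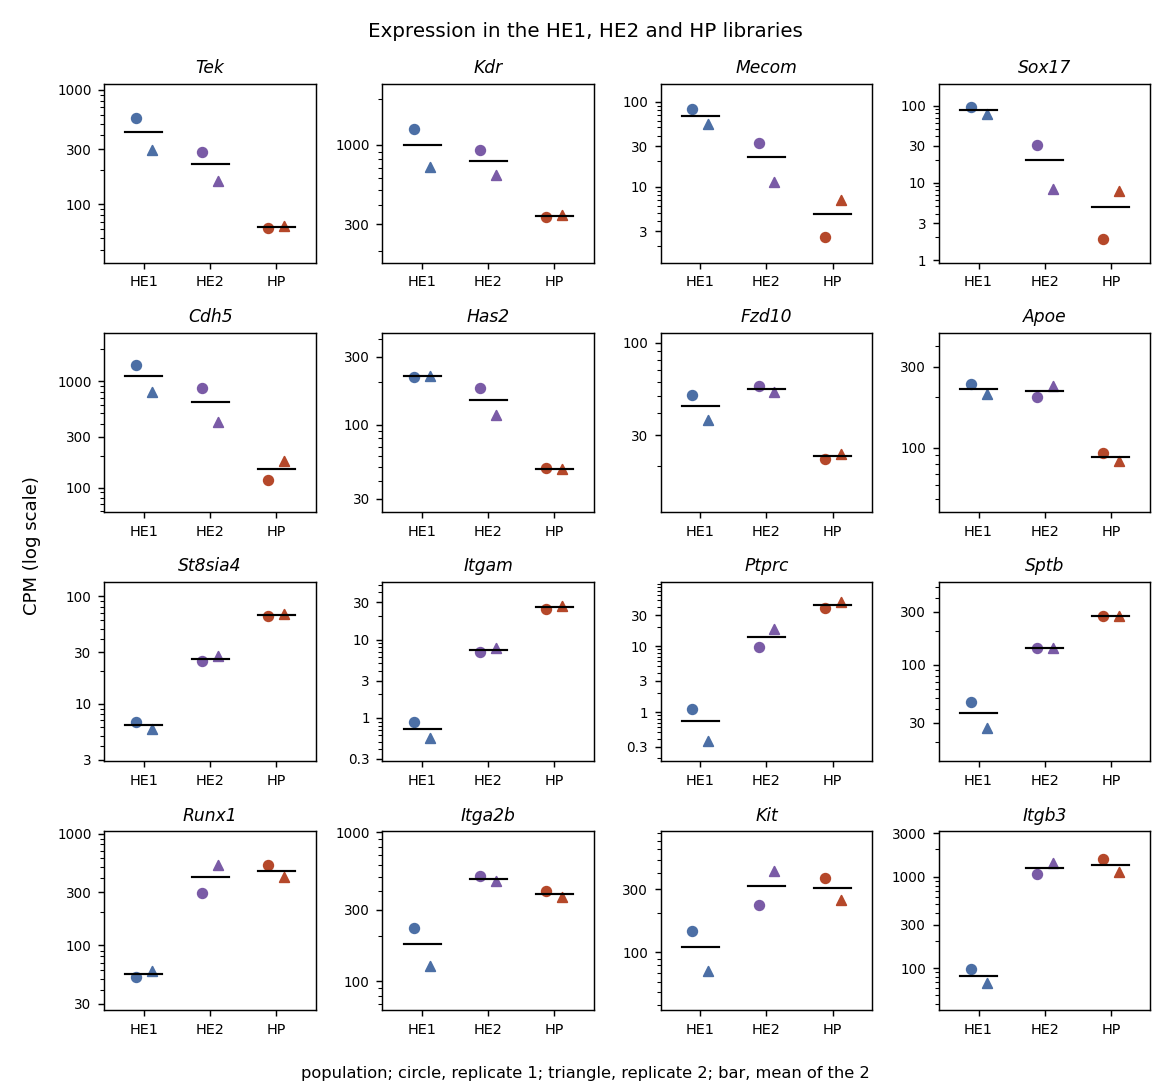
CPM on a log axis for 16 genes in the HE1, HE2 and HP libraries, with a circle for replicate 1, a triangle for replicate 2 and a bar for the mean of the 2. Tek goes from 285 and 159 CPM in HE2 to 61.5 and 64.2 CPM in HP, while Itgb3 and Runx1 have overlapping HE2 and HP libraries.

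Single genes were then tested across the genome. edgeR's quasi-likelihood test called 0 genes (0%) between HP and HE2 under the same rule, and the smallest adjusted p-value was 0.0665, shared by 38 genes. At an unadjusted p-value under 0.05, 670 genes were higher (2.97%) and 1113 lower (4.93%). limma-voom, the test of the study, called 35 genes as higher (0.155%) and 27 as lower (0.119%), and DESeq2 called 107 and 193. edgeR itself called 18 and 17 genes among those with a mean of 9 CPM or more in HE2 or in HP, a filter that uses the values compared, and 145 and 389 with no filter on low counts. Without HE2 replicate 2, edgeR called 50 genes as higher and 475 as lower, and without HE2 replicate 1 it called 0 in either direction, although an unadjusted p-value under 0.05 was reached by 959 genes on the higher side and 425 on the lower side. Among the fits that left out an HE2 or HP library, edgeR called genes only where HE2 replicate 2 was left out. That was the HE2 library nearer to HP in the genes called between HE1 and HP. The lone library of a stage is then assumed to vary like the other stages. Single genes are therefore described by rank and by their values in each library.

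The 12 genes with the smallest p-values on the lower side, among those with a mean of 9 CPM or more in HE2 or in HP and with HP below HE2 in every library, were led by Has2, Fzd10 and Tspan18. Has2 (ENSMUSG00000022367, chr15:56665627-56694539), the synthase of the matrix polysaccharide hyaluronan, had 180 and 116 CPM in HE2 and 49.3 and 48.6 CPM in HP. Fzd10 (ENSMUSG00000081683, chr5:128600844-128604093), a receptor for WNT ligands, had 57 and 52.7 CPM in HE2 and 22 and 23.3 CPM in HP. Tspan18, a tetraspanin of endothelial cells, had 160 and 97.7 CPM in HE2 and 39.8 and 43.6 CPM in HP. The HP libraries of each were close together and far below the lower HE2 library, which the choice of these genes favors. The log2 fold changes were −1.60 (SE 0.20), −1.28 (SE 0.17) and −1.63 (SE 0.22), each with an adjusted p of 0.0665 by edgeR, and limma-voom called all 3.

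Among the others was Rasip1, which is needed for the formation of vascular lumens and had 219 and 100 CPM in HE2 and 33 and 40.6 CPM in HP. Fgd5, an exchange factor for the GTPase CDC42 in endothelial cells and stem cells, had 168 and 112 CPM in HE2 and 45.3 and 48.5 CPM in HP. Tfpi, an inhibitor of the start of blood clotting, had 32.7 and 27.2 CPM in HE2 and 13.2 and 13.7 CPM in HP. Their log2 fold changes were −2.12 (SE 0.33), −1.58 (SE 0.25) and −1.15 (SE 0.17). Vash1, an endothelial inhibitor of angiogenesis, had 25.7 and 18.4 CPM in HE2 and 8.17 and 7.73 CPM in HP. Igfbp4, which binds insulin-like growth factors, had 379 and 253 CPM in HE2 and 140 and 111 CPM in HP. Apoe, the lipid carrier apolipoprotein E, had 198 and 232 CPM in HE2 and 92.7 and 83.4 CPM in HP. In HE1, Apoe had 238 and 206 CPM and Fzd10 had 50.8 and 36.5 CPM, so that the HE2 libraries overlapped those of HE1 for Apoe and lay above them for Fzd10. The remaining 3 were Grasp, Zfpm2 and Gm13889. Zfpm2 encodes FOG2, a partner of GATA factors in the heart, and had 20.6 and 21.3 CPM in HE2 and 7.76 and 9.09 CPM in HP. limma-voom called all 12.

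On the higher side the 12 genes were led by St8sia4 (ENSMUSG00000040710, chr1:95587682-95667571), an enzyme that adds polysialic acid to surface proteins. It had 24.8 and 27.8 CPM in HE2 and 65.3 and 67.9 CPM in HP, and its log2 fold change was 1.34 (SE 0.17). Nfam1, a receptor with an ITAM motif that signals in B cells and myeloid cells, had 8.01 and 11.4 CPM in HE2 and 30.7 and 32.1 CPM in HP. Sema4d, a semaphorin of blood cells, had 38.2 and 52.4 CPM in HE2 and 119 and 95.5 CPM in HP. All 3 were also higher in HE2 than in HE1, where St8sia4 had 6.81 and 5.81 CPM, Nfam1 0.967 and 1.09 CPM, and Sema4d 7.74 and 8.19 CPM. Samd14, which enhances KIT signaling in erythroid cells, had 49.6 and 58.3 CPM in HE2 and 131 and 110 CPM in HP. Tspoap1 had 52.2 and 50.8 CPM in HE2 and 128 and 140 CPM in HP.

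Itgam (ENSMUSG00000030786, chr7:128062640-128118491), which encodes the myeloid integrin CD11b, had 6.92 and 7.87 CPM in HE2 and 24.6 and 27 CPM in HP, and its log2 fold change was 1.80 (SE 0.29). Gm49368 overlaps the exons of Itgam on the same strand and may share its reads, which was not tested, so that it is not taken as a separate result. Ncf1, a subunit of the phagocyte NADPH oxidase, had 12.9 and 15.4 CPM in HE2 and 42.2 and 40.3 CPM in HP. Zbtb16, the transcription factor PLZF, had 9.08 and 18.7 CPM in HE2 and 46.5 and 51.2 CPM in HP. For Itgam, Ncf1 and Zbtb16 as for St8sia4, the HP libraries were close together and far above both HE2 libraries, which the choice of these genes favors. The others were Coro2a, Igsf3 and Pygl, the glycogen phosphorylase of the liver, with 4.45 and 3.65 CPM in HE2 and 13.8 and 11.3 CPM in HP. Each of the 12 had an adjusted p of 0.0665 by edgeR, and limma-voom called 11, while Igsf3 was under 2-fold with a log2 fold change of 0.98.

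Gene lists were described next, by the number of members lower or higher at an unadjusted p-value under 0.05 and by their median log2 fold change, which was 0.01 over all tested genes. The lists were written with earlier results of these data known, and their members are not independent. Counts of members beside the share of all tested genes are therefore a description and not a test. The list of endothelial surface and junction genes had the lowest median among the pathway and cell type lists. Of its 30 genes 29 were tested, all 29 had a negative log2 fold change, and 28 were lower at an unadjusted p-value under 0.05, against 4.93% of all tested genes. In 23 of the 29 both HP libraries were below both HE2 libraries, against 13% of tested genes. The median log2 fold change was −1.73, and the median rank of the members was at percentile 0.836 from the lowest. Summed over the list, expression was 5917 and 3234 CPM in HE2 and 1574 and 1795 CPM in HP, against 9171 and 6220 CPM in HE1. Per length of transcript, Cdh5 was the most abundant member. Counts of members in fits without a library, here and below, stand against other numbers over all genes at an unadjusted p-value under 0.05. These were 959 higher and 425 lower of 24418 genes without HE2 replicate 1, and 688 and 1751 of 24420 without HE2 replicate 2. They were 799 and 886 of 24376 without HP replicate 1, and 601 and 937 of 24286 without HP replicate 2. The median was −0.89 without HE2 replicate 1 and −2.28 without HE2 replicate 2, and the number lower at an unadjusted p-value under 0.05 was 18 and 29 of 30. Calls by edgeR without HE2 replicate 2, given for lists below, come from the only fit with a library left out in which edgeR called genes. With all libraries DESeq2 called 17 members of this list and limma-voom 2.

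Cdh5 (ENSMUSG00000031871, chr8:104101625-104144511) encodes VE-cadherin, the adhesion protein of endothelial junctions. It had 862 and 412 CPM in HE2 and 118 and 179 CPM in HP, and its log2 fold change was −2.10 (SE 0.38). Plvap, a protein of endothelial caveolae and fenestrae, had 192 and 90.1 CPM in HE2 and 44 and 41.6 CPM in HP. Adgrl4, an adhesion receptor of endothelial cells, had 121 and 66 CPM in HE2 and 17 and 33.6 CPM in HP. The stages did not overlap for any of these 3, although HE2 replicate 2 was far below replicate 1. limma-voom called Cdh5 and Adgrl4. Eng, a co-receptor for TGF-beta and BMP ligands, had 365 and 199 CPM in HE2 and 84.3 and 99.6 CPM in HP, and Flt4, the VEGF-C receptor, had 202 and 76.7 CPM in HE2 and 24.2 and 45.6 CPM in HP. Pecam1 and Tie1 were lower by less. Pecam1, the adhesion molecule CD31 that blood cells also carry, had 483 and 340 CPM in HE2 and 239 and 217 CPM in HP, and its log2 fold change was −0.85 (SE 0.22). Tie1, the orphan relative of TIE2, had 552 and 412 CPM in HE2 and 258 and 195 CPM in HP.

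The 15 endothelial transcription factors all had a negative log2 fold change, and 13 were lower at an unadjusted p-value under 0.05. Their median was −1.30 at a median percentile of 1.85. Sox18 and Sox7 are the other SOXF factors beside Sox17. Sox18 had 92 and 44.9 CPM in HE2 and 12.2 and 17.2 CPM in HP, and Sox7 had 54 and 13.8 CPM in HE2 and 2.92 and 12 CPM in HP. Sox18 was clearly separated between the stages, with a log2 fold change of −2.22 (SE 0.37), whereas Sox7 in HE2 replicate 2 was close to HP replicate 2. Among ETS factors, Erg had 83.5 and 93 CPM in HE2 and 53.8 and 33.2 CPM in HP, and Ets1 had 338 and 159 CPM in HE2 and 92.5 and 111 CPM in HP. Erg was not higher in HE1, with 83.4 and 61.1 CPM, while Ets1 was, with 565 and 442 CPM. Etv2, which starts the blood and vascular program in mesoderm, was low in all of them, with 5.73 and 3.40 CPM in HE2 and 1.94 and 2.29 CPM in HP. No member was called by limma-voom, and DESeq2 called 6 as lower. The median of the list was −0.65 without HE2 replicate 1, with 6 of 15 members lower at an unadjusted p-value under 0.05, and −1.79 without HE2 replicate 2, with 13, of which edgeR then called 11. Without HP replicate 1, 8 members were lower at that level.

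**Figure D2:**
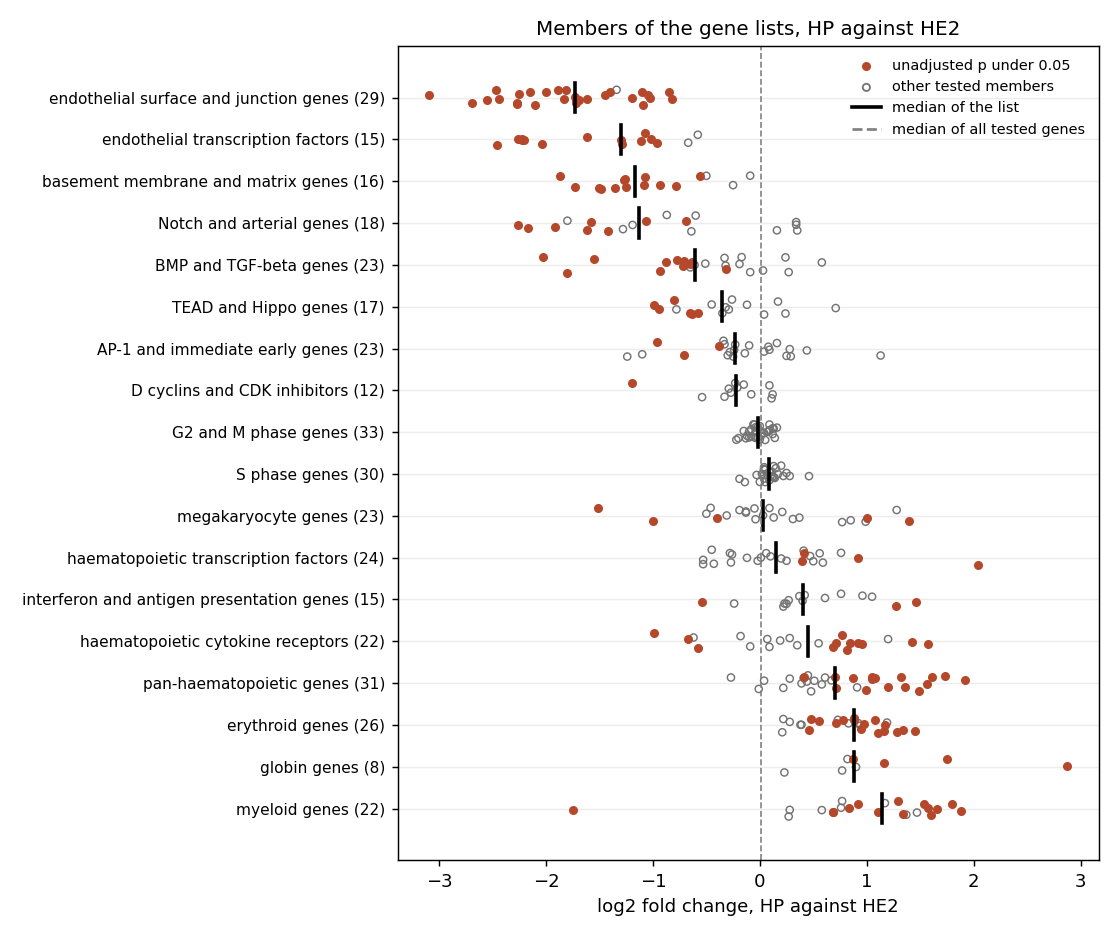
Log2 fold change of HP against HE2 for the tested members of 18 gene lists (number of tested members in parentheses), with filled points for members at an unadjusted p-value under 0.05, black bars for list medians and a dashed line for the median of all tested genes at 0.01. The endothelial lists lie on the left with medians of −1.73 and −1.30, the cell cycle lists lie at −0.02 and 0.09, and the erythroid and myeloid lists lie on the right with 0.88 and 1.14.

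Genes of the basement membrane and matrix, on which the vessel wall rests, followed the endothelial lists. All 16 had a negative log2 fold change, 13 were lower at an unadjusted p-value under 0.05, and the median was −1.17. Col4a1, a chain of type IV collagen, had 1994 and 706 CPM in HE2 and 372 and 592 CPM in HP. Col18a1, a basement membrane collagen that gives rise to endostatin, had 1485 and 968 CPM in HE2 and 528 and 493 CPM in HP. Fn1, which encodes fibronectin, had 5724 and 3841 CPM in HE2 and 1888 and 2135 CPM in HP. DESeq2 called 6 of the 16 as lower. The stages did not overlap for any of the 3, and limma-voom called Col18a1. Its level in HE1 was 1470 and 1048 CPM, so that the lower level was seen first in HP, whereas Col4a1 was already lower in HE2 than in HE1, where it had 3350 and 2546 CPM. The median of the list was −0.48 without HE2 replicate 1, with 4 of 16 members lower at an unadjusted p-value under 0.05, and −1.52 without HE2 replicate 2, with 14, of which edgeR then called 12.

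Notch and arterial genes divided. Of 18 members 8 were lower at an unadjusted p-value under 0.05, 0 were higher by edgeR, limma-voom called 0, and DESeq2 called 4 as lower. The median was −1.13, but it was only −0.12 without HE2 replicate 1, with 3 members lower at an unadjusted p-value under 0.05. It was −1.66 without HE2 replicate 2, with 11, and edgeR then called 10. Notch1, the receptor needed for arterial and hemogenic fate, had 323 and 158 CPM in HE2 and 56.2 and 101 CPM in HP. Gja4, a connexin of arteries, had 41.2 and 15 CPM in HE2 and 4.11 and 8.49 CPM in HP. Nrarp, a feedback inhibitor that Notch signaling turns on, had 33.2 and 20.9 CPM in HE2 and 10.4 and 9.79 CPM in HP. These 3 did not overlap between the stages. The Notch target Hey1 had 7.68 and 8.44 CPM in HE2 and 12.6 and 7.85 CPM in HP, and the arterial ligand Efnb2 had 106 and 37.7 CPM in HE2 and 28.6 and 40 CPM in HP, and both overlapped.

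BMP and TGF-beta genes were lower in 11 of 23 members at an unadjusted p-value under 0.05, with a median of −0.61, and DESeq2 called 2 while limma-voom called none. Id3, a target of BMP signaling that blocks helix-loop-helix factors, had 64.3 and 30.1 CPM in HE2 and 11.9 and 15.1 CPM in HP. Its log2 fold change was −1.80 (SE 0.32), and it was −1.16 without HE2 replicate 1 and −2.25 without HE2 replicate 2. Bmper, a secreted modulator of BMP in vessels, had 19.5 and 12.9 CPM in HE2 and 5.13 and 5.94 CPM in HP. Smad6, an inhibitor of BMP signals, had 213 and 114 CPM in HE2 and 93.3 and 84.4 CPM in HP. Each was separated between the stages, while the receptor gene Tgfbr2 was close, with 79.3 and 62.4 CPM in HE2 and 56.2 and 56.8 CPM in HP. The median was −0.28 without HE2 replicate 1, with 5 members lower at an unadjusted p-value under 0.05, and −0.72 without HE2 replicate 2, with 13, where edgeR called 6. Without HP replicate 1 there were 7. TEAD and Hippo genes had 6 of 17 members lower at an unadjusted p-value under 0.05 and a median of −0.35. The median was 0.02 without HE2 replicate 1, −0.65 without HE2 replicate 2, −0.42 without HP replicate 1 and −0.32 without HP replicate 2. Without HE2 replicate 1, as many members were higher as lower at that level. Fewer members were lower without HE2 replicate 1, HP replicate 1 or HP replicate 2, and more were lower without HE2 replicate 2. limma-voom and DESeq2 called none of the 17. Tead2 had 75.8 and 45.9 CPM in HE2 and 36.3 and 33.7 CPM in HP, and the coactivator gene Wwtr1 had 114 and 58.4 CPM in HE2 and 38.9 and 50.9 CPM in HP. Tead1 overlapped, with 131 and 86.6 CPM in HE2 and 86.8 and 91.7 CPM in HP, after 262 and 271 CPM in HE1.

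On the blood side, the pan-hematopoietic list had 31 of 32 genes tested, of which 29 had a positive log2 fold change and 16 were higher at an unadjusted p-value under 0.05, against 2.97% of all tested genes. In 20 of them both HP libraries were above both HE2 libraries, against 15.8% of tested genes. The median log2 fold change was 0.70, at a median percentile of 97.3. Summed expression was 1592 and 2210 CPM in HE2 and 2916 and 2357 CPM in HP, against 515 and 425 CPM in HE1. Ptprc (ENSMUSG00000026395, chr1:138062861-138175708), the pan-leukocyte phosphatase CD45, had 9.87 and 18.2 CPM in HE2 and 38.7 and 47.3 CPM in HP, and its log2 fold change was 1.61 (SE 0.39). Lcp1, an actin-bundling protein of leukocytes, had 26.5 and 32.3 CPM in HE2 and 64.4 and 57.2 CPM in HP, and Itgb2, the beta chain of the leukocyte integrins, had 10.2 and 11.1 CPM in HE2 and 22.7 and 22.1 CPM in HP. The stages did not overlap for these 3 genes, and limma-voom called each of them. Others differed by less than the HE2 libraries did between themselves. Vav1, an exchange factor for RAC proteins in blood cells, had 20.5 and 41.1 CPM in HE2 and 57.6 and 42.6 CPM in HP, so that HE2 replicate 2 nearly reached HP replicate 2. The median was 0.57 without HE2 replicate 1 and 1.09 without HE2 replicate 2, with 10 and 19 members higher at an unadjusted p-value under 0.05, and 10 were higher without HP replicate 1. edgeR called 4 of them without HE2 replicate 2, and DESeq2 called 7 with all libraries.

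Of the 24 hematopoietic transcription factors, 4 were higher at an unadjusted p-value under 0.05, 0 were lower by edgeR, limma-voom called 0, DESeq2 called 1 as higher, and the median was 0.15. Without HE2 replicate 1 the median was 0.06, and without HE2 replicate 2 it was 0.39. Without HP replicate 1 it was 0.09, and without HP replicate 2 it was 0.32. Fewer members were higher at that level without HE2 replicate 1, HP replicate 1 or HP replicate 2, and more without HE2 replicate 2. Without HP replicate 1, as many members were lower as higher. Runx1, the regulator of the endothelial to hematopoietic transition, had 295 and 519 CPM in HE2 and 523 and 412 CPM in HP, after 52.4 and 58.6 CPM in HE1. Spi1, which encodes the myeloid factor PU.1, had 26.4 and 65.9 CPM in HE2 and 82.3 and 56.7 CPM in HP, after 1.85 and 2.48 CPM in HE1. For both, the HE2 and HP libraries overlapped. Gata2 had 63.5 and 59.1 CPM in HE2 and 48.8 and 35.9 CPM in HP, and Gfi1, a repressor of endothelial genes under RUNX1, had 14.1 and 12.6 CPM in HE2 and 9.72 and 8.68 CPM in HP. Both were slightly lower in HP without passing an unadjusted p-value of 0.05. The 4 higher members were Runx3, Zfpm1, Cbfa2t3 and Nfix. Runx3, the relative of Runx1 that acts in lymphoid and myeloid cells, had 0.975 and 1.02 CPM in HE2 and 5.54 and 2.61 CPM in HP, and its log2 fold change was 2.04 (SE 0.52) at a low level. Zfpm1, which encodes the GATA1 partner FOG1, had 326 and 380 CPM in HE2 and 473 and 454 CPM in HP.

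Of the erythroid genes, all 26 tested members had a positive log2 fold change, 16 were higher at an unadjusted p-value under 0.05, and the median was 0.88 at percentile 97.4. The summed level was 1712 and 1878 CPM in HE2 and 2851 and 2443 CPM in HP. Gata1, the main erythroid and megakaryocytic GATA factor, had 24.5 and 38.5 CPM in HE2 and 75.8 and 65.7 CPM in HP. Klf1, the erythroid Krüppel-like factor, had 13.9 and 17.7 CPM in HE2 and 42.6 and 28 CPM in HP. Sptb (ENSMUSG00000021061, chr12:76580488-76710547), the beta spectrin of the red cell membrane skeleton, had 141 and 142 CPM in HE2 and 277 and 277 CPM in HP. The 2 libraries of each stage were nearly equal for Sptb, and its log2 fold change was 0.97 (SE 0.20). Tfrc, the transferrin receptor for iron uptake, had 236 and 256 CPM in HE2 and 384 and 336 CPM in HP. The HE2 libraries differed on this list, in which replicate 2 was below replicate 1 by a median log2 difference of −0.52, against 0.50 for the pan-hematopoietic list. The summed level, Gata1, Klf1 and Tfrc ran against this median and were higher in HE2 replicate 2. The median log2 fold change was 1.25 without HE2 replicate 1, 0.60 without HE2 replicate 2 and 0.54 without HP replicate 1, with 16, 8 and 7 members higher at an unadjusted p-value under 0.05. limma-voom called 0 of these genes, and DESeq2 called 3 as higher.

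The median of the globin genes depended on HP replicate 1. Hbb-bh1, an embryonic beta-like globin and the most abundant globin here per length, had 1225 and 1063 CPM in HE2 and 2622 and 1554 CPM in HP. The embryonic alpha-like globin Hba-x had 696 and 461 CPM in HE2 and 1518 and 643 CPM in HP, and the embryonic Hbb-y had 206 and 104 CPM in HE2 and 426 and 119 CPM in HP. In each case HP replicate 1 was the highest of the 4, and HP replicate 2 was above both HE2 libraries for Hbb-bh1 only. Of 8 tested members 4 were higher at an unadjusted p-value under 0.05, with a median of 0.88, which was 0.01 without HP replicate 1, with 1 member higher, and 1.43 without HP replicate 2, with 6. It was 1.31 without HE2 replicate 1, with 6, and 0.71 without HE2 replicate 2, with 3, of which edgeR called 1. Hba-a1 and Hba-a2 are near-identical copies between which reads cannot be assigned with certainty, so that the limma-voom call of Hba-a2 is uncertain. Hba-a1 had 42.4 and 26.7 CPM in HE2 and 98.1 and 56.5 CPM in HP, and Hba-a2 had 1.55 and 3.21 CPM in HE2 and 21.5 and 13.4 CPM in HP. These 2 did not depend on HP replicate 1 for their direction, with log2 fold changes of 1.16 (SE 0.33) and 2.87 (SE 0.56), and of 0.71 and 2.48 without it. DESeq2 called 2 globin genes as higher.

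Myeloid genes had a median of 1.14. Of 28 genes 22 were tested, 13 were higher and 1 was lower at an unadjusted p-value under 0.05, and in 16 the HP libraries were above both HE2 libraries. Besides Itgam and Ncf1, both called by limma-voom, Csf1r, the receptor for M-CSF, had 3.11 and 2.03 CPM in HE2 and 5.93 and 9.38 CPM in HP. Tyrobp, the adaptor DAP12, had 3.38 and 4.79 CPM in HE2 and 14.2 and 10.5 CPM in HP. Irf8, a factor of monocyte development, had 1.40 and 1.65 CPM in HE2 and 6.07 and 5.21 CPM in HP. All 3 were low but separated between the stages. The HE2 libraries of Irf8 and Cebpa, which encodes the myeloid factor C/EBPα, lay within the range of HE1, where Irf8 had 0.883 and 2.54 CPM and Cebpa had 1.22 and 4.82 CPM. Cebpa had 2.50 and 3.87 CPM in HE2 and 8.65 and 6.90 CPM in HP. The granule enzyme gene Mpo, the most abundant member per length, overlapped with 61.5 and 148 CPM in HE2 and 247 and 111 CPM in HP. Mrc1, the mannose receptor that some endothelial cells also carry, was the lower member with 16.5 and 12.5 CPM in HE2 and 1.12 and 7.60 CPM in HP, and it was chosen after its values were seen. The median was 1.09 without HE2 replicate 1, with 10 members higher at an unadjusted p-value under 0.05, and 1.30 without HE2 replicate 2, with 12, of which edgeR called 2. DESeq2 called 4 members as higher.

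Megakaryocyte genes had a median of 0.03, which was −0.05 without HE2 replicate 1 and 0.22 without HE2 replicate 2, and an unadjusted p-value under 0.05 in 2 of 23 tested members on the higher side and 3 on the lower side. These counts were 1 and 1 without HE2 replicate 1 and 0 and 2 without HE2 replicate 2 in edgeR, which then called 1 as lower. Without HP replicate 1 the median was −0.17, with 0 higher and 4 lower, and without HP replicate 2 it was 0.31, with 3 higher and 1 lower. limma-voom called none, and DESeq2 called 1 as lower. Itgb3, the beta chain that pairs with CD41, had 1065 and 1405 CPM in HE2 and 1573 and 1139 CPM in HP. The HE2 and HP libraries overlapped, and the level was far lower in HE1, with 97 and 68.5 CPM. Vwf, a clotting protein of megakaryocytes that endothelial cells also make, had 50.8 and 13.7 CPM in HE2 and 16.2 and 16 CPM in HP, so that both HP libraries lay between the HE2 libraries. Cytokine receptors were mixed, with 9 of 22 tested members on the higher side and 3 on the lower side at that level in edgeR, and limma-voom and DESeq2 called none. Their median was 0.45, and it was 0.29 without HE2 replicate 1, with 7 higher and 2 lower, and 0.74 without HE2 replicate 2, with 8 and 3, where edgeR called 1 as higher and 1 as lower. Epor, the receptor for erythropoietin, had 21.7 and 23.7 CPM in HE2 and 37.2 and 37.3 CPM in HP, and Il10ra had 2.99 and 5.37 CPM in HE2 and 11.7 and 10.7 CPM in HP. Lifr, the receptor for LIF, was lower with 274 and 168 CPM in HE2 and 88.5 and 135 CPM in HP, and so was Il4ra with 118 and 87.7 CPM in HE2 and 68.4 and 61.5 CPM in HP.

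Genes of the cell cycle were examined by phase. None of the 30 S phase genes and none of the 33 genes of G2 and M phase reached an unadjusted p-value of 0.05 in edgeR, where 2.97% and 4.93% of tested genes did in either direction, and limma-voom and DESeq2 called none. The medians were 0.09 and −0.02, and the log2 fold changes of the S phase genes ran from −0.19 to 0.46 and those of the G2 and M phase genes from −0.22 to 0.16. Mcm2, a subunit of the replicative helicase, had 291 and 373 CPM in HE2 and 379 and 330 CPM in HP. Mki67, the proliferation marker Ki-67, had 729 and 1031 CPM in HE2 and 945 and 974 CPM in HP, after 570 and 327 CPM in HE1. The 2 stages overlapped for both. Without HE2 replicate 2 the medians of the S phase and the G2 and M phase lists were 0.35 and 0.19, with 4 S phase genes higher at an unadjusted p-value under 0.05, and without HE2 replicate 1 they were −0.12 and −0.21. They were −0.01 and −0.10 without HP replicate 1, with 1 S phase gene higher, and 0.18 and 0.11 without HP replicate 2. The list of D cyclins and CDK inhibitors also held Cdk4 and Cdk6. Of its 12 members, 1 was lower at an unadjusted p-value under 0.05. This was Ccnd1, which encodes cyclin D1, with 166 and 34.5 CPM in HE2 and 39.6 and 47.7 CPM in HP, so that HE2 replicate 2 was below both HP libraries and HE2 replicate 1 was above them. The median of the list was −0.22, and it was 0.10 without HE2 replicate 1 and −0.31 without HE2 replicate 2. It was −0.40 without HP replicate 1 and −0.03 without HP replicate 2. No member was lower at that level in limma-voom or DESeq2. The same held in edgeR without HE2 replicate 1, HP replicate 1 or HP replicate 2. Without HE2 replicate 2, members reached that level on both sides, and more of them were lower.

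Immediate early genes, which are also induced by cell handling, had a median of −0.23, with 3 of 23 members, Junb, Socs3 and Nr4a1, lower at an unadjusted p-value under 0.05. Without HE2 replicate 1 the median was 0.03, with 3 higher and 1 lower, and without HE2 replicate 2 it was −0.38, with 1 higher and 5 lower, of which edgeR called 2. It was −0.04 without HP replicate 1, with 1 lower, and −0.35 without HP replicate 2, with 4. Fos had 23.6 and 13.5 CPM in HE2 and 12.3 and 18.5 CPM in HP, and Jun had 227 and 149 CPM in HE2 and 139 and 167 CPM in HP. Both overlapped. Of 15 interferon and antigen presentation genes, whose median was 0.40, 2 were higher and 1 was lower at that level, and the median was 0.59 without HE2 replicate 1, with 3 and 0 in edgeR, and 0.44 without HE2 replicate 2, with 2 and 1. Without HP replicate 1 there was 1 on each side. limma-voom and DESeq2 called none of them. The higher genes were the immunoproteasome subunits Psmb8, with 1.43 and 0.730 CPM in HE2 and 2.76 and 2.48 CPM in HP, and Psmb9, both at a low level, and the lower gene was Bst2. The nuclear RNA Malat1 had 6029 and 2699 CPM in HE2 and 4004 and 5779 CPM in HP, and 0 of 6 nuclear-retained RNAs reached an unadjusted p-value of 0.05 in edgeR or were called by limma-voom or DESeq2. The median of these 6 was 0.10, and it was 0.48 without HE2 replicate 1, with 2 higher at that level, and −0.08 without HE2 replicate 2, with 1 lower. It was 0.15 without HP replicate 1, with 1 higher, and −0.09 without HP replicate 2. The 13 mitochondrially encoded genes were listed at 0 counts in all of the libraries.

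Markers of other cell types were examined for the sort gates. The summed level of 12 smooth muscle and mesenchymal genes was 1186 and 839 CPM in HE2 and 1519 and 775 CPM in HP, with Acta2 the most abundant per length at 428 and 278 CPM in HE2 and 529 and 249 CPM in HP. Here the 2 HP libraries differed more from each other than the stages did. At an unadjusted p-value under 0.05, 1 of 12 members was higher in edgeR. No member was higher at that level in limma-voom, nor in edgeR without HE2 replicate 1, HE2 replicate 2 or HP replicate 1. In limma-voom, and in edgeR without HE2 replicate 2 or HP replicate 1, what reached that level was lower instead. The 10 cardiac genes summed to 218 and 215 CPM in HE2 and 187 and 175 CPM in HP, with Mef2c the most abundant per length. Hand2 and Gata4, factors of the heart and lateral plate mesoderm, were the 2 lower members at an unadjusted p-value under 0.05, and Hand2 had 35.5 and 23.9 CPM in HE2 and 9.33 and 11 CPM in HP after 103 and 67.8 CPM in HE1. The muscle gene Tnnt2 was low, with 7.89 and 1.75 CPM in HE2 and 1.64 and 2.80 CPM in HP. The pluripotency list summed to 23.5 and 12 CPM in HE2 and 16.4 and 10.9 CPM in HP, with Klf4 the most abundant per length. Klf4 was also the 1 lower member at an unadjusted p-value under 0.05. No member was lower at that level in limma-voom, nor in edgeR without HE2 replicate 1 or HP replicate 1. Nanog was under 1 CPM in all 4 libraries. Of 11 mast cell genes 3 were tested, and the list summed to 5.39 and 12.2 CPM in HE2 and 17.3 and 12.6 CPM in HP, with Cpa3 the most abundant per length and 3 members at 0 in all 4 libraries. Of 14 lymphoid genes 10 were tested, 1 was higher and 1 was lower at an unadjusted p-value under 0.05, and 10 of the 14 were under 1 CPM in all 4 libraries. The list summed to 12.6 and 10.7 CPM in HE2 and 6.11 and 6.42 CPM in HP, with Cd79b the most abundant per length, and Cd3e was at 0 in all 4. The higher gene was Pax5, which was at 0 in HE2 and under the floor in HP. No lymphoid gene was higher at that level in DESeq2, or in edgeR with any 1 of the 4 libraries left out. The lower gene was Ebf1, a B cell factor also made in stroma, with 9.66 and 6.41 CPM in HE2 and 1.55 and 2.19 CPM in HP. Without HE2 replicate 1 and without HE2 replicate 2, the medians were 0.38 and −0.24 for smooth muscle, 0.12 and −0.67 for cardiac, 0.33 and 0.21 for pluripotency, 0.41 and 1.33 for mast cell and 0.42 and 0.51 for lymphoid genes, against 0.03, −0.16, 0.27, 0.75 and 0.12 with both. Without HE2 replicate 2 edgeR called 2 cardiac genes, 1 pluripotency gene and 1 lymphoid gene as lower. With all libraries DESeq2 called 2 cardiac genes and 1 lymphoid gene as lower, and limma-voom called none in these lists. In the same order, the medians were −0.44, −0.58, −1.06, 0.50 and 0.00 without HP replicate 1 and 0.45, −0.18, 0.75, 1.23 and 0.25 without HP replicate 2. The part of other cell types in the lists above was not tested.

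HE2 against HE1 was set beside the step to show what remained after CD41 was gained. Both comparisons use the HE2 libraries, so that their values are given side by side and no overlap was computed. HE2 against HE1 gave 737 genes higher (3.26%) and 1217 lower (5.39%). Pan-hematopoietic genes had a median of 2.58 in HE2 against HE1, with 26 of 31 called as higher, and of 0.70 in HP against HE2. For megakaryocyte genes the medians were 2.17 and 0.03, for erythroid genes 1.65 and 0.88, and for myeloid genes 2.13 and 1.14. Endothelial surface and junction genes had a median of −0.84 in HE2 against HE1, with 1 of 29 called as lower, and of −1.73 in HP against HE2. TEAD and Hippo genes had −1.14, with 10 of 17 called as lower, and then −0.35. For Notch and arterial genes the medians were −1.44 and −1.13. Without HE2 replicate 1 the medians of HP against HE2 were −0.89 for endothelial surface, 0.02 for TEAD and −0.12 for Notch genes, and without HE2 replicate 2 they were −2.28, −0.65 and −1.66. List medians of HE2 against HE1 were not computed without either HE2 library. A larger step in these 3 lists therefore cannot be told apart from the difference between the HE2 libraries.

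**Figure D3:**
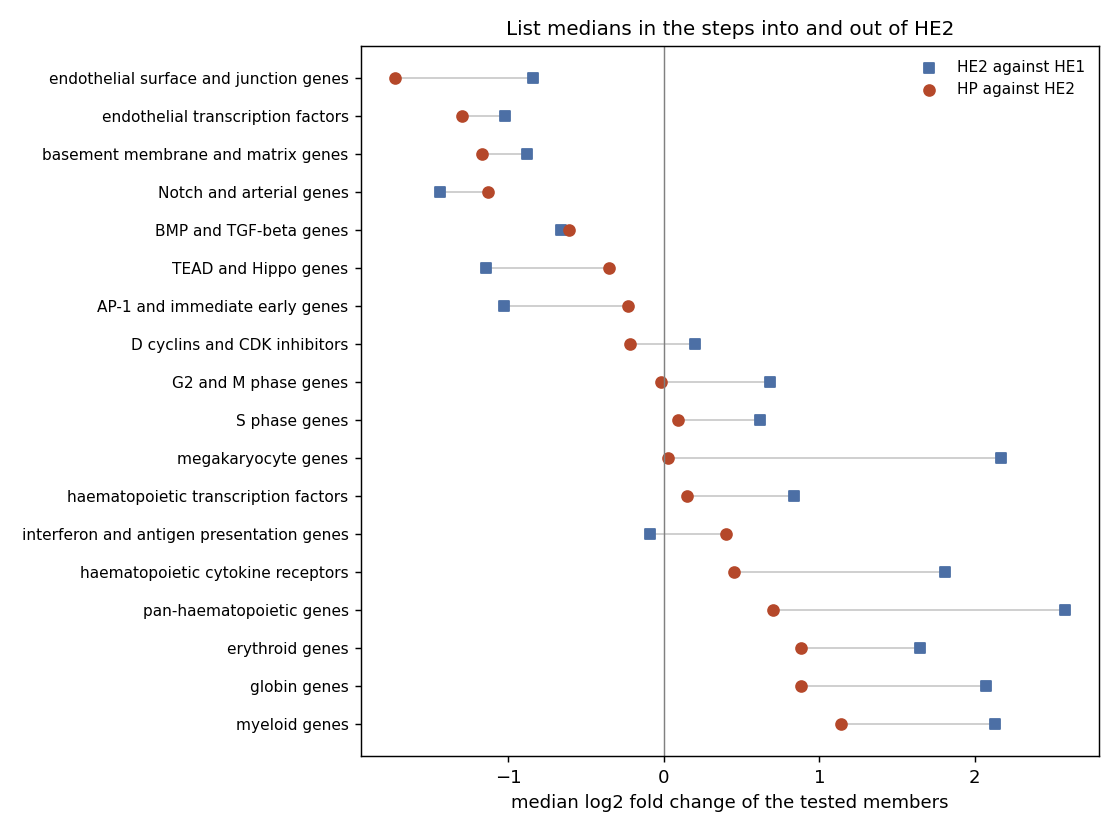
Median log2 fold change of the tested members of 18 gene lists in HE2 against HE1 (squares) and in HP against HE2 (circles), which share the HE2 libraries. Endothelial surface and junction genes have −0.84 and −1.73, pan-hematopoietic genes 2.58 and 0.70, and megakaryocyte genes 2.17 and 0.03. All points use both HE2 libraries; the circles of the first 2 lists would lie at −0.89 and 0.57 without HE2 replicate 1 and at −2.28 and 1.09 without HE2 replicate 2.

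Whether a gene's change from HE2 to HP differed from its change from HE1 to HE2 was tested in the same model. The test called 13 genes (0.0575%) at an adjusted p-value under 0.05, and in all 13 the log2 fold change was positive from HE1 to HE2 and smaller or negative from HE2 to HP. Itgb3 was among them, with a difference of −3.77 (SE 0.37) between the steps (edgeR, adjusted p = 0.0200). Csf3r, the receptor for G-CSF, had 0.799 and 0.561 CPM in HE1, 14.8 and 18.1 CPM in HE2 and 24.3 and 15.7 CPM in HP. Chosen after their values were seen, Plek, a cytoskeletal protein of platelets and leukocytes, had 29.9 and 17.1 CPM in HE1, 383 and 538 CPM in HE2 and 699 and 549 CPM in HP, and P2ry1, an ADP receptor of platelets, had 42.3 and 31.5, then 120 and 123, and then 105 and 80 CPM. For Tek, Kdr, Mecom, Sox17 and Cdh5 the test of the steps did not pass (edgeR, adjusted p from 0.529 to 0.990). A larger loss in either step was thus not shown for them. None of the 13 called genes passed without HE2 replicate 2, HP replicate 1 or HP replicate 2. The number called was 0 without HP replicate 1, 0 without HP replicate 2, 1 without HE2 replicate 2, 301 without HE2 replicate 1, 279 without HE1 replicate 1 and 2 without HE1 replicate 2.

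A few genes outside the lists were singled out after their values were seen, because they were not lower in HE2 than in HE1 and limma-voom called them as lower in HP. Kcnk9, a potassium channel, had 32.4 and 14.9 CPM in HE1, 89.6 and 62.5 CPM in HE2 and 20.5 and 17 CPM in HP. Gad2, an enzyme of GABA synthesis, had 70.7 and 37.5 CPM in HE1, 67.7 and 78.5 CPM in HE2 and 13.8 and 23.1 CPM in HP. For both, the HP libraries were below the HE2 libraries, while for Kcnk9 they overlapped those of HE1, and for both the test of the steps did not pass (edgeR, adjusted p = 0.0662 and 0.230). H19, an imprinted noncoding RNA, was another limma-voom call and was lower in both steps, with 2799 and 4038 CPM in HE1, 1464 and 1077 CPM in HE2 and 429 and 507 CPM in HP. Mir675 overlaps an exon of H19 on the same strand, and the reads counted on Mir675 may be those of H19, which was not tested.

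The promoters of Tek, the gene of the sort antigen TIE2, and Eng, a member of the endothelial surface and junction list, are shown. They run from 250 bases before to 50 bases after the annotated start and come from RefSeq (GRCm38.p6). Promoters of 1 chromosome were left out of the table used. The rest held a promoter for 16 of the 30 endothelial surface and junction genes, which is too few to give a share for the list. Letters of the core motif of ETS factors were searched on both strands as CCGGAA and CAGGAA only, and matches are in capitals. Other sequences that hold GGAA on either strand were not searched and stay in lower case. CAGGAA occurs in 30.6% of the 32851 promoters left in the table and CCGGAA in 14.9%, so that a match is a description and not a binding site.
Tek: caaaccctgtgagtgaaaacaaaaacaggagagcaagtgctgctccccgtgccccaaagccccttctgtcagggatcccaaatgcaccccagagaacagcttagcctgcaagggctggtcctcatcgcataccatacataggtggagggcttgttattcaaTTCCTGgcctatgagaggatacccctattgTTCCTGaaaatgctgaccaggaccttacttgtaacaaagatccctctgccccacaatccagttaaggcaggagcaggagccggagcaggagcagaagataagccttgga
Eng: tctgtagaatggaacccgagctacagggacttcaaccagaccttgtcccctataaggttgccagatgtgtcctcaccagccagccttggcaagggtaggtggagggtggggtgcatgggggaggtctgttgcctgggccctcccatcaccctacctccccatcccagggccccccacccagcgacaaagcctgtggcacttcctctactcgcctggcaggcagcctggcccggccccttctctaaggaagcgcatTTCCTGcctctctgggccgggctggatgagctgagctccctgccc
The window of Tek (chr4:94739039-94739338, plus strand) held CAGGAA 2 times, and that of Eng (chr2:32646345-32646644, plus strand) held it 1 time, in each case on the opposite strand, where it reads TTCCTG. Neither held CCGGAA.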

How the data were processed

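The authors deposited raw fragment counts per gene for each of the 10 libraries, made from nuclear RNA-seq reads aligned to mm10 with HISAT2 2.2.1 and counted on Ensembl exons with featureCounts, in which reads with several alignments were not counted. Gene names were taken from GENCODE M21, which named 55141 of 55487 identifiers. Genes were filtered with filterByExpr, scaled with TMM and tested with edgeR 4.0.16 (R 4.3.3) by the quasi-likelihood F test in a single fit of stage over 10 libraries, with 5 residual degrees of freedom and Benjamini-Hochberg adjustment over 22596 genes. Called genes differed 2-fold or more with an adjusted p-value under 0.05, and for the contrast of the steps the adjusted p-value alone was used. Alternatives were limma 3.58.1 with voom, DESeq2 1.42.0, other scalings, filters and sets of libraries, a replicate block, and leaving out each library. The code was tested on simulated data. The members and the 27 gene lists were chosen with earlier results of these data known, and lists carry no test. Named genes were the sort antigens and markers, the 12 with the smallest p-value in each direction among genes at 9 CPM or more whose stages did not overlap, from each list the first 4 members and up to 4 tested members with the smallest p-values, and list members called by limma-voom. The deposited averages per stage were not used, since they hold no replicates.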

Additional observations from a re-analysis of the deposited data

How the results depend on the processing

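The number of genes called in HP against HE2 was 0 in each direction in edgeR with DESeq2's size factors, with total counts, with the 4 or the 6 libraries alone and with a replicate block over all libraries. It was 35 higher and 27 lower by limma-voom, 107 and 193 by DESeq2, 145 and 389 when low counts were not filtered, and 18 and 17 among genes at 9 CPM or more. With a replicate block in the 4 libraries it was 28 and 74. Leaving out 1 library gave 0 to 50 higher and 0 to 475 lower, and 425 to 1751 lower at an unadjusted p-value under 0.05. The number of genes higher in HP at an unadjusted p under 0.05 was 1011 with no filter, 410 at 9 CPM or more and 382 with the 6 libraries, and with a replicate block in the 4 libraries 376 were higher and 626 lower. The deviations of same-numbered HE2 and HP libraries had a correlation across genes of −0.311, and between −0.316 and 0.213 for other pairs of stages. A crossed pairing in the 4 libraries, chosen after seeing the data, called 190 and 292 genes, with 1056 higher at an unadjusted p-value under 0.05.

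The lymphoid median was 0.09 by limma-voom, 0.13 by DESeq2, 0.17 with total counts, 0.95 with no filter, 0.06 and 0.03 with the 4 and the 6 libraries, and 0.07 with a replicate block in the 4 libraries. With only genes at 9 CPM or more, fewer members were tested and the median was 0.77 for myeloid, −1.47 for cardiac, −0.88 for pluripotency and 0.24 for interferon and antigen presentation genes. Without 1 library the medians ran from −1.66 to −0.12 for Notch and arterial genes, from −1.52 to −0.48 for basement membrane and matrix genes, and from −0.72 to −0.28 for BMP and TGF-beta genes. They ran from 0.57 to 1.09 for pan-hematopoietic genes, from 0.29 to 0.74 for cytokine receptors, from 1.00 to 1.30 for myeloid genes, from 0.54 to 1.25 for erythroid genes and from 0.01 to 1.43 for globin genes. For lymphoid genes they ran from 0.00 to 0.51, for cardiac genes from −0.67 to 0.12 and for pluripotency genes from −1.06 to 0.75. For the list of D cyclins and CDK inhibitors, which also held Cdk4 and Cdk6, they ran from −0.40 to 0.10. For interferon and antigen presentation genes they ran from 0.28 to 0.59. The test of the steps called 7 genes with the 6 libraries and 0 to 301 without 1 library. Apart from the effect of fewer genes or libraries, the cause was not tested.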
